A study of Mus musculus with 12 samples.

Results

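The apical turn of the mouse cochlea was compared with the middle turn on 8 of the 12 arrays of the series, the 4 labelled as apical turn and the 4 labelled as middle turn. The members were chosen by these tissue labels alone. All arrays held RNA of male C57BL/6 mice aged 6 weeks, untreated as far as the labels tell, with 25 ng of total RNA labelled per array. The other 4 arrays held the basal turn, and their levels are given beside the comparison where they help to place a gene. The pieces held the organ of Corti, the lateral wall with its stria, ligament and prominence, and, by the study's methods, spiral ganglion neurons, so that a value is an average over many cell types, and fewer cells of a type and less RNA per cell cannot be told apart. The arrays of a turn shared 1 of 3 slides, which held no other turn, and slide and turn therefore cannot be told apart in any value below. The labels name 4 mice and do not tie the same sample number in different turns to the same animal, and the p-values measure the spread between these arrays. By the study's methods the cochleae of 4 mice were separated into the 3 turns, so the turns probably share animals. The main test treated the turns as independent samples.

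The cochlea is laid out by frequency: low tones move the apex most and high tones the base. Along this axis the basilar membrane widens and softens toward the apex, the tectorial membrane above the hair cells changes its thickness and stiffness, and hair bundles become taller. The stria vascularis in the lateral wall secretes potassium into the endolymph and keeps the electrical potential that drives the hair cells. The labelled tissues were present in both turns: genes of hair cells (Slc26a5, the outer hair cell motor protein prestin), of strial marginal cells (the potassium channel Kcnq1) and of ligament fibrocytes (Otos, otospiralin, and Coch, cochlin) all had probes well above background on all 8 arrays.

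Signals are fluorescence intensities scaled so that the 75th percentile of each array was 641.3, and a gene's value is the mean of the log2 signals of its probes. Before scaling, the 75th percentile ran from 534.6 to 722.1 over the 12 arrays, 77.4% to 81.5% of spots were well above background, and the lowest signal that counted as such on an array was 24.7 to 35.8. Across genes, the SD among replicates had a median of 0.106 log2 units in the apex and 0.126 for the middle turn. Differences below are apical minus middle in log2 units with their standard error, and the adjusted p is that of limma over all 19505 genes. Of these genes, 863 (4.42%) passed the test at an adjusted p under 0.05 with the apex higher, and 1480 (7.59%) with the middle turn higher. Counts for every list below are to be read against these shares, and a count near them is no result about the list. With a difference of 2-fold or more in addition, 52 genes (0.267%) had the apex higher and 24 (0.123%) the middle turn. Another 68 genes were 2-fold or more apart without passing the test. The median of all genes was -0.07. When the arrays were scaled to 8 spike-in probes instead, this median moved to -0.28, the 2-fold calls became 29 and 105 and the genes passing the test 213 and 7717, so that the split between the directions depends on the scaling. With scaling to the median, 45 and 34 genes were called 2-fold and 661 and 2888 passed the test. All 76 of the 2-fold calls kept their direction under all 24 other settings tried, wherever the gene could still be measured. Several of these settings could not change a direction. The 8 arrays alone, limma's trend and robust options, the F test, the analysis of variance and the replicate block keep the same mean difference. The authors' value matrix held the same intensities. Leaving out arrays could not reverse a call whose apical and middle arrays did not overlap, as was so for 69 of the 76. Of the 76 calls, 57 passed the test whichever 1 of the 8 arrays was left out. The arrays of the 2 turns did not overlap for 69 of the 76, against 20.8% of all genes (7.31% with the apex and 13.5% with the middle turn above). The calls were made on these same arrays, so the lack of overlap describes them and is no separate support. Between the middle and basal turns, 11.7% of genes passed with the middle turn and 9.21% with the base higher. That comparison shares the middle arrays with this one. Of the 55 of these 76 calls with several probes, 53 had all their probes on the same side. A call is made on the mean of its probes, so this is no separate support. The share over all genes was not counted.

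**Figure D1:**
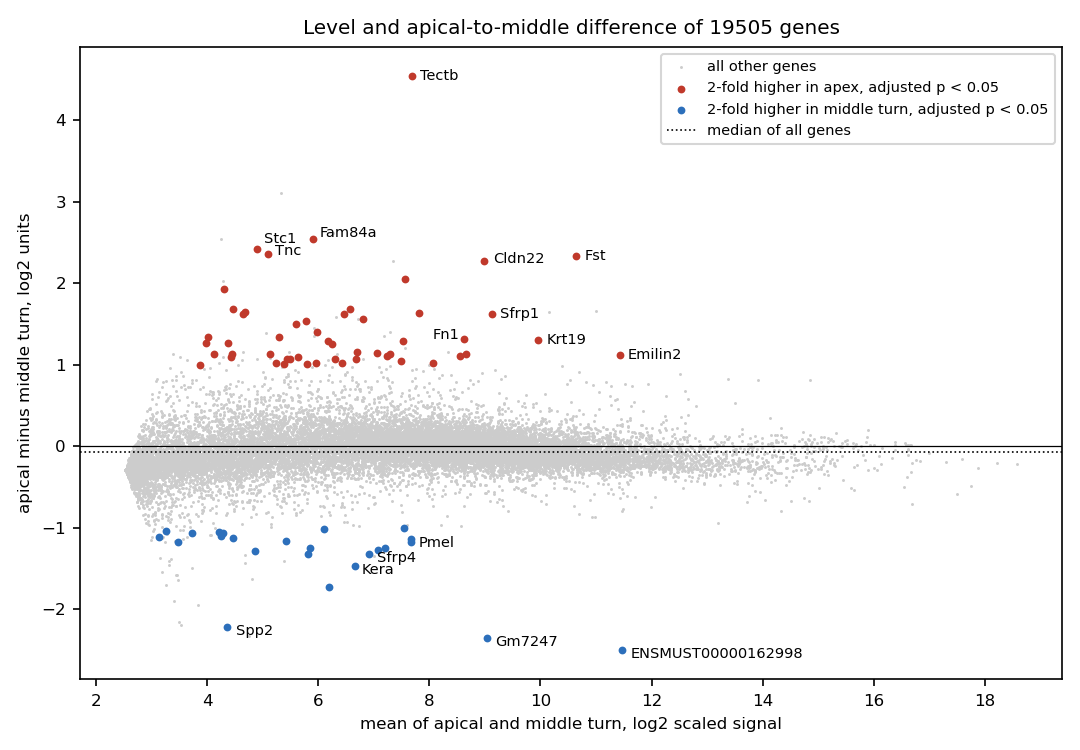
Each point is a gene, with its mean level in both turns (x axis, log2 scaled signal) and the apical minus middle difference (y axis, log2 units); red and blue points are the 52 and 24 genes called 2-fold, and the dotted line is the median of all genes at -0.07. Tectb stands above every other called gene, and the lowest points are the names of the Gm7247 locus.

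Tectb had the largest difference of all called genes. It encodes beta-tectorin, a glycoprotein of the tectorial membrane whose loss in mice alters tuning and impairs hearing of low tones. Its signal was 718, 1285, 995 and 1072 on the 4 apical arrays and 41.1, 46.8, 42.0 and 41.1 on the 4 middle arrays. The turns were far apart, and the basal turn (41.9 ± 3.36, SD, n = 4) lay at the level of the middle turn. The difference was 4.54 ± 0.145 over all 9 probes (adjusted p = 7.06e-08), of which 4 were not well above background on any middle array. Over the 5 probes that were so on all 8 arrays, a value added after seeing the data, it was 2.96, or 7.76-fold. Across the settings tried the fold ran from 7.23 with normexp background correction to 26, and the middle turn differed from the basal turn by 0.03 (adjusted p = 0.896).

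All 9 Tectb probes, which span chr19:55255521-55270618 on mm9, were brighter in the apex, by unequal amounts. The 3 probes below are shown because probe 6 was well above background in both turns and had the smallest difference of the gene, while probes 2 and 7 were well above background on all apical arrays and on no middle array. Each is 60 bases long and reads along the plus strand.
Tectb probe 2, chr19:55256411-55256470: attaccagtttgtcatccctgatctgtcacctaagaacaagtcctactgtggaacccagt
Tectb probe 6, chr19:55264283-55264342: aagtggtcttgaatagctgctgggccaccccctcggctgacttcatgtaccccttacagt
Tectb probe 7, chr19:55266006-55266065: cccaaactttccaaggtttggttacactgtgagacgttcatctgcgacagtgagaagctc
Tectb probe 6 averaged 1610 on the apical arrays against 671 for the middle turn, a difference of 1.26. Probes 2 and 7 averaged 741 and 757 in the apex and were not well above background on any middle array, which makes them at least 22.4-fold and at least 23-fold higher in the apex. The fold change of the gene is an average over such probes.

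**Figure D2:**
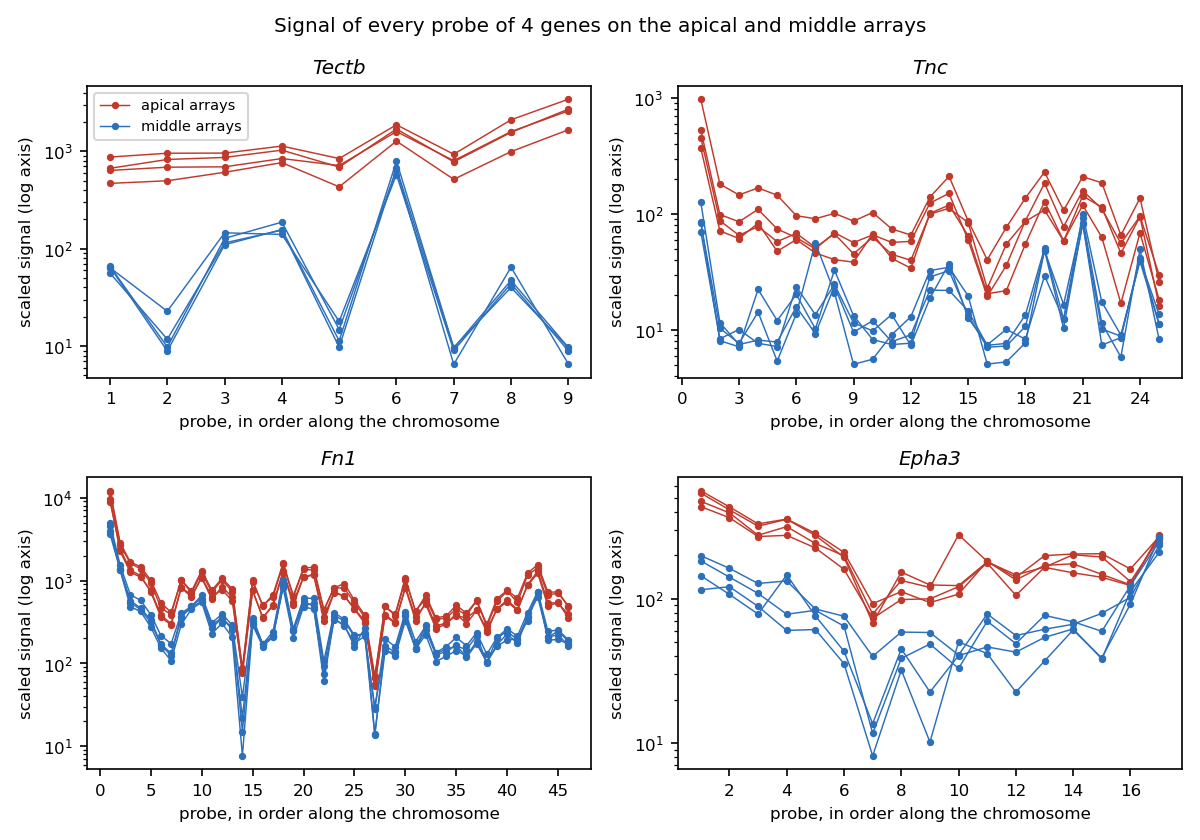
Scaled signal (y axis, log scale) of every probe of Tectb, Tnc, Fn1 and Epha3 in order along the chromosome (x axis), with 1 line per apical (red) and middle (blue) array. The red lines lie above the blue ones at nearly all probes, and Tectb probe 6 is the probe at which its lines come closest.

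Of 5 measured genes for proteins of the tectorial membrane and its attachment, Tectb among them, 2 passed the test with the apex higher and none with the middle turn higher, and the list's median was 0.22. The share with the apex higher was 40%, against 4.42% of all genes. Otoa, Ceacam16 and Tecta did not pass, with 0.22 (adjusted p = 0.199), -0.06 (adjusted p = 0.817) and -0.07 (adjusted p = 0.356). Otog, otogelin, which anchors the membrane to the underlying epithelium, averaged 174 in the apex against 113 in the middle turn, a difference of 0.62 ± 0.121 (adjusted p = 0.0107), with 49 of 51 probes higher in the apex.

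Among 12 genes for the matrix of the basilar membrane and of basement membranes, 4 passed the test with the apex higher and none with the middle turn higher, and the median was 0.19. The share with the apex higher was 33.3%, against 4.42% of all genes. The large matrix glycoproteins of the basilar membrane led this list, and 3 of them were called 2-fold. Tnc, tenascin C, had signals of 56.4, 78.9, 69.3 and 118 on the apical arrays and 14.9, 15.48, 14.98 and 15.26 on the middle arrays. No array overlapped, and all 25 probes were higher in the apex. The difference was 2.36 ± 0.191 (5.12-fold, adjusted p = 0.000124). In the middle turn 2 of the 25 probes were well above background on all 4 arrays, against 20 in the apex, so that the lower level rests on dim probes. Across the settings the fold of Tnc ran from 1.68 with normexp correction to 6.19, and over the 2 probes measured on all 8 arrays it was 3.26.

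Fn1, fibronectin, was measured by 46 probes, and all of them were brighter in the apex. Its signal was 677, 708, 555 and 549 in the apex against 220, 240, 289 and 251 in the middle turn, and the difference was 1.31 ± 0.102 (adjusted p = 0.00011). Emilin2, an elastin-associated protein abundant in the basilar membrane, was well above background in both turns. Its signal was 4377, 3966, 3562 and 4347 on the apical arrays and 1495, 1654, 2257 and 2180 on the middle arrays. The difference was 1.12 ± 0.149 (2.17-fold, adjusted p = 0.00193), and the middle turn was in turn 2.54 above the basal turn (adjusted p = 5.46e-06). The fourth gene, Hspg2, perlecan of basement membranes, differed by 0.32 with overlapping arrays (adjusted p = 0.0468). It no longer passed when any 1 of apical replicates 1, 2 and 3 and middle replicates 1, 2 and 4 was left out (adjusted p up to 0.122). Without apical replicate 4 or middle replicate 3, 5 of the 12 passed, and with scaling to the spike-in probes the list's median was -0.02 against -0.28 for all genes.

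Secreted antagonists of BMP, activin and Wnt ligands bind these signals outside the cell. Of 25 such genes, 9 passed the test with the apex higher and 2 with the middle turn higher, against 4.42% and 7.59% of all genes, while the median of the list was 0.03. Fst, follistatin, which binds activins, had signals of 4120, 4015, 2846 and 3533 on the apical arrays, 766, 838, 608 and 656 on the middle arrays and a mean of 173 ± 40.5 (SD, n = 4) in the basal turn. The levels stepped down from apex to base with no overlap between turns. The difference was 2.34 ± 0.175 (5.05-fold, adjusted p = 0.00011), and middle minus basal was 2.07 (adjusted p = 4.12e-05). Sfrp1, a secreted frizzled-related protein that binds Wnt ligands, had signals of 1031, 1079, 854 and 965 in the apex against 306, 304, 330 and 329 in the middle turn. Its difference was 1.63 ± 0.095 (adjusted p = 2.41e-05).

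Sfrp4, of the same family, ran the other way. Its signal was 58.5, 67.4, 89.1 and 94.7 on the apical arrays and 143, 193, 228 and 206 on the middle arrays, and it rose to 1203 ± 119 (SD, n = 4) in the basal turn. The difference was -1.32 ± 0.174 (adjusted p = 0.00177), and middle minus basal was -2.66 (adjusted p = 8.03e-06). For Fst, Sfrp1 and Sfrp4, the inner probe with an open reading frame whose difference was nearest to the gene's value is shown because the 3 genes encode antagonists that differed in opposite directions.
Fst probe, minus strand, chr13:115244488-115244547: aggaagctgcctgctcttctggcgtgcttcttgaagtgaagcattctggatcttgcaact
Sfrp1 probe, plus strand, chr8:24527820-24527879: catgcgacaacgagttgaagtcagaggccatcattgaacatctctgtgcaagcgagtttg
Sfrp4 probe, plus strand, chr13:19717069-19717128: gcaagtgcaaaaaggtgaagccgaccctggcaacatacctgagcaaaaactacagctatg
The Fst probe averaged 4590 in the apex against 751 in the middle turn, the Sfrp1 probe 1040 and 283, and the Sfrp4 probe 87.8 and 205.

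The third antagonist called 2-fold in the apex was Grem1, gremlin, which binds BMPs. Its single probe read 130, 126, 51.7 and 128 in the apex against 37.5, 28.8, 46.9 and 44.9 in the middle turn, where it was well above background on 2 of 4 arrays. Apical replicate 3 lay close to the middle arrays. The difference was 1.40 ± 0.301 (adjusted p = 0.0155), and it did not pass the test without apical replicate 2 (adjusted p = 0.052). Wif1, a Wnt inhibitor, was higher in the apex by 0.76 (adjusted p = 0.00203). Chrdl2, a chordin-like BMP antagonist, was lower in the apex by 0.39 (adjusted p = 0.0471). Without apical replicates 2 and 4 together, 3 and 1 genes of the list passed, and with scaling to the spike-in probes 5 and 7, at a median of -0.18 against -0.28 for all genes.

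The ligands themselves were divided. Of 20 TGF-beta, activin and BMP ligands, 3 passed with the apex higher and 3 with the middle turn higher, with a median of 0.02. That is 15% each way, against 4.42% and 7.59% of all genes. Inhba, the subunit of activin A, averaged 365 ± 35.2 (SD, n = 4) in the apex against 235 ± 16.8 in the middle turn, a difference of 0.63 (adjusted p = 0.00482). Gdf15, a stress-induced member of the family, had signals of 101, 113, 88.6 and 80.1 in the apex against 191, 220, 223 and 279 in the middle turn. It was lower on every apical array, with a difference of -1.25 ± 0.157 (adjusted p = 0.00125). Mstn and Bmp4 were the others with the middle turn higher. Bmp4 stopped passing on leaving out any 1 of 6 arrays, all but apical replicate 4 and middle replicate 1 (adjusted p up to 0.126). Mstn did not pass without apical replicate 2 or middle replicate 4 (adjusted p up to 0.0567). Of 19 Wnt ligands, Wnt7b alone (5.26%) passed, with 0.32 (adjusted p = 0.0113) and a basal level above both turns.

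**Figure D3:**
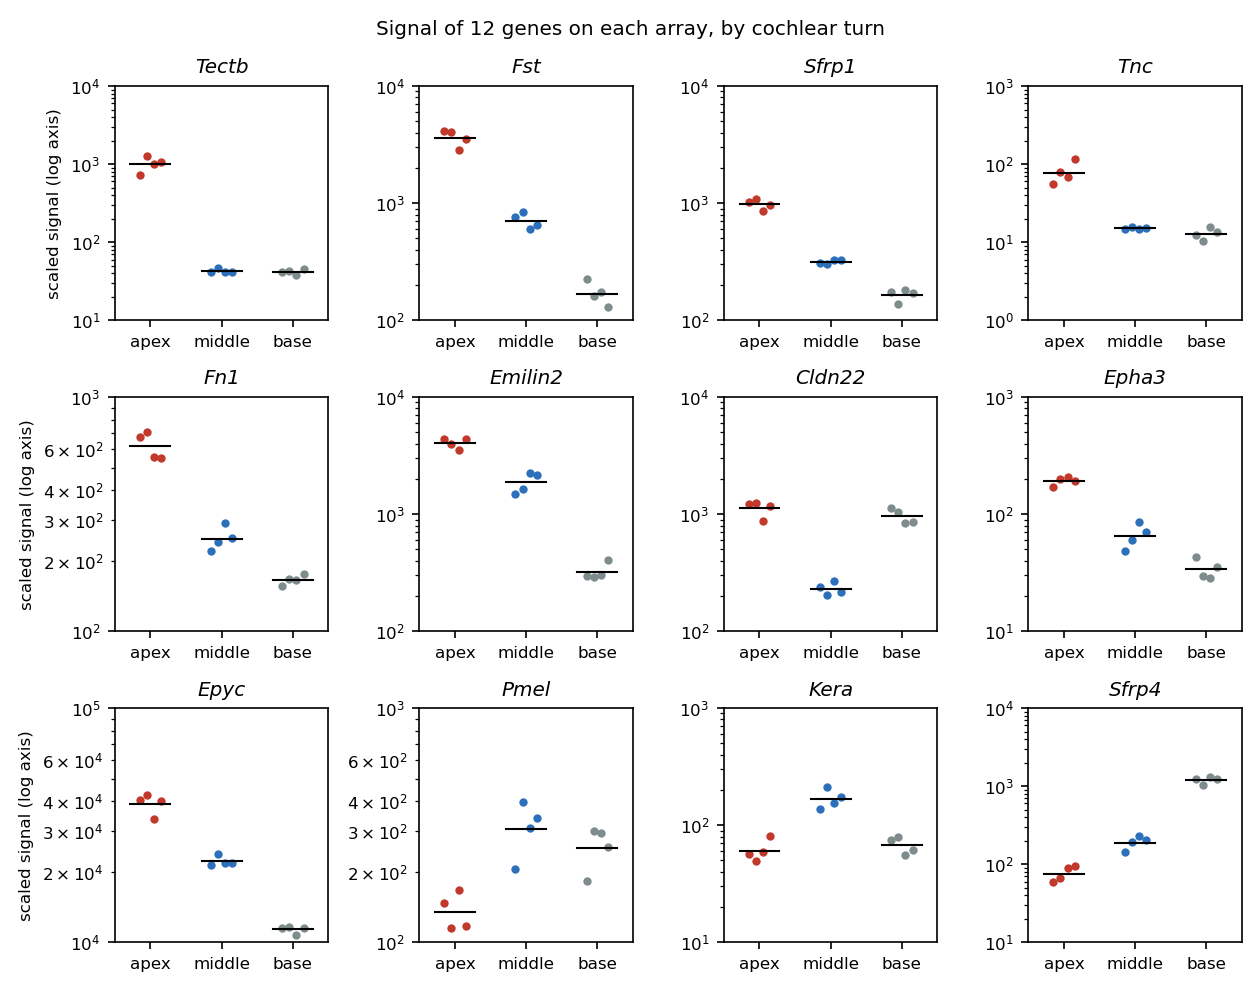
Scaled signal (y axes, log scale) of 12 genes on each array of the apex (red), middle turn (blue) and base (grey), with bars at the mean of the log signals. Fst, Fn1, Emilin2 and Epyc step down from apex to base, Tectb is high in the apex alone, Cldn22 is low in the middle turn, Kera is high in the middle turn and Sfrp4 rises to the base.

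Of 9 measured genes of outer hair cells, which amplify sound, 4 passed the test with the apex higher, against 4.42% of all genes, and none with the middle turn higher. The differences ran from -0.41 to 0.70, 7 of 9 lay above 0, and the median was 0.37 against -0.07 for all genes. Slc26a5 had signals of 354, 420, 333 and 282 in the apex against 207, 213, 224 and 201 in the middle turn, a difference of 0.70 ± 0.194 (adjusted p = 0.0397) with all 17 probes higher in the apex. Chrna9 and Chrna10, the subunits of the acetylcholine receptor through which efferent nerve fibres inhibit these cells, differed by 0.58 ± 0.111 (adjusted p = 0.00971) and 0.59 ± 0.116 (adjusted p = 0.0105). The apical arrays lay above the middle arrays for all 3 genes. Aqp11, a water channel gene of this list, differed by 0.37 (adjusted p = 0.0301). Slc26a5 and Aqp11 stopped passing when any 1 of apical replicates 1, 2 and 3 and middle replicates 1, 2 and 4 was left out (adjusted p up to 0.112 and 0.0915), which left 2 of the 9 genes. Without apical replicates 2 and 4 together none of the 9 passed, at a median of 0.36.

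None of the 8 genes of inner hair cells and their ribbon synapse passed, with a median of 0.15 and a range from -0.26 to 0.42. None of the 5 hair cell transcription factors passed either, with a median of -0.15. Of 30 genes of the hair bundle and its transduction complex, 7 passed with the apex higher and 3 with the middle turn higher, and the median was 0.21. The shares were 23.3% and 10%, against 4.42% and 7.59% of all genes. Ptprq, a phosphatase of the links at the base of stereocilia, averaged 121 ± 10.3 (SD, n = 4) in the apex against 66.2 ± 5.44 in the middle turn. Its difference of 0.87 ± 0.111 (adjusted p = 0.00138) was the largest of the list, with 42 of 43 probes higher in the apex. Strc, stereocilin, which links the tips of stereocilia to each other and to the tectorial membrane, differed by 0.61 (adjusted p = 0.0143). Whrn, the scaffold protein whirlin, went the other way, with 76.4, 77.0, 90.5 and 85.3 in the apex against 120, 106, 135 and 144 in the middle turn. All 13 of its probes were lower in the apex, and the difference was -0.61 ± 0.103 (adjusted p = 0.00549). Without single arrays, 4 to 7 genes of the list passed with the apex higher, the lowest number without apical replicate 2, middle replicate 1 or middle replicate 4, and with scaling to the spike-in probes 3 passed with the apex and 7 with the middle turn higher, at a median of -0.005 against -0.28 for all genes.

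Gene by gene, supporting cells showed no common direction, with 6 genes above 0 and 7 below. Of 13 genes, Jag1, a Notch ligand, passed with the apex higher, by 0.41 (adjusted p = 0.00618), and Gjb6, the gap junction protein connexin 30, with the middle turn higher. Gjb6 differed by -0.38 (adjusted p = 0.0138), and its basal level was higher again. The shares passing were 7.69% each way, near the 4.42% and 7.59% of all genes. The summed signal of the list, in which bright genes weigh most, was 172000 to 196900 on the apical and 212200 to 246600 on the middle arrays.

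**Figure D4:**
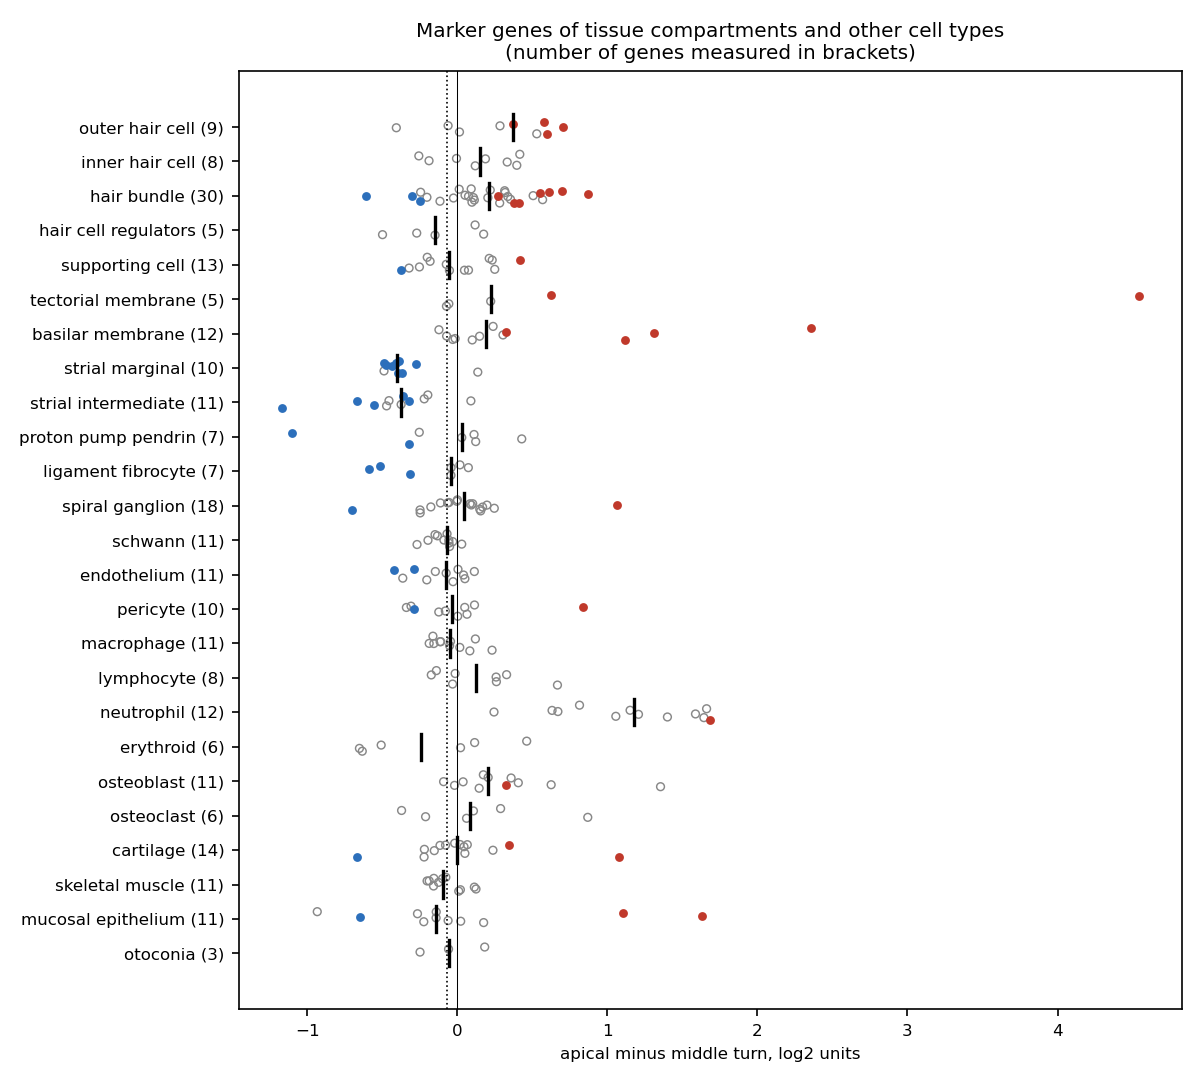
Apical minus middle difference (x axis, log2 units) of each measured gene of 25 marker lists (rows), with filled points for genes that passed the test (red, apex higher; blue, middle turn higher), open points for the others, a bar at each list's median and a dotted line at the median of all genes. Strial lists lie to the left, outer hair cells to the right, and the neutrophil list lies far to the right with 1 gene passing.

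Of 10 genes of marginal cells of the stria vascularis, which secrete potassium, 8 passed the test with the middle turn higher, against 7.59% of all genes, and none with the apex higher. The median was -0.40. Among them were the potassium channel Kcnq1, the cotransporter Slc12a2, the sodium pump subunit Atp1b2, the nuclear receptor Esrrb and the P-type ATPase Atp13a5. Kcnq1 had signals of 476, 484, 539 and 578 in the apex against 597, 695, 787 and 859 in the middle turn, a difference of -0.49 ± 0.121 (adjusted p = 0.0264) that did not pass on leaving out any 1 of 5 arrays, apical replicates 1, 2 and 3 and middle replicates 2 and 4 (adjusted p up to 0.0801). Slc12a2, which loads these cells with potassium, averaged 12530 and 16430, a difference of -0.39 (adjusted p = 0.00427). The differences were small, from -0.28 to -0.49 among the 8, and for Kcnq1 the middle turn differed from the basal turn by -0.06 (adjusted p = 0.775). Kcne1, the beta subunit of this channel, had -0.49 (adjusted p = 0.134), and Lrp2 0.14 (adjusted p = 0.414). The number passing fell to 4, 3 and 4 without apical replicate 1, 2 and 3, to 5 and 4 without middle replicate 2 and 4, and to 1 without apical replicates 2 and 4 together, at medians from -0.34 to -0.42.

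Intermediate cells are melanocytes of the stria. Of 11 melanocyte genes, 5 passed with the middle turn higher and none with the apex higher, with a median of -0.38. The share was 45.5%, against 7.59% of all genes. Pmel, which forms the fibrils on which pigment is laid down, had signals of 147, 115, 167 and 118 in the apex against 205, 397, 309 and 339 in the middle turn. All 10 probes were lower in the apex, and the difference was -1.17 ± 0.217 (2.25-fold, adjusted p = 0.00845), which did not pass without apical replicates 2 and 4 together (adjusted p = 0.0841). Dct, dopachrome tautomerase of pigment synthesis, averaged 18560 and 30000, with -0.67 (adjusted p = 0.0466), and stopped passing on leaving out any 1 of 7 of the arrays, all but middle replicate 1. Gpnmb, a melanosome glycoprotein, differed by -0.55 (adjusted p = 0.0146) and Kcnj10, the potassium channel of these cells, by -0.33 (adjusted p = 0.0216). Tyrp1 had -0.37 (adjusted p = 0.0191), and its difference went to 0.001 with only probes well above background. Tyrp1 did not pass without apical replicate 2 or 3 (adjusted p up to 0.0642). The number passing was 3, 3 and 2 without apical replicate 1, 2 and 3 and 3 without middle replicate 4, rose to 9 without middle replicate 1, and was 0 without apical replicates 2 and 4 together, at a median of -0.51.

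The spiral ligament and its neighbours gave fewer calls. Of 7 genes of ligament and limbus fibrocytes, 3 passed with the middle turn higher, at a median of -0.04. That is 42.9%, against 7.59% of all genes. Otos had signals of 161000, 141400, 149000 and 154100 in the apex against 226700, 249000, 209200 and 226000 in the middle turn. The difference was -0.59 ± 0.071 (adjusted p = 0.000989), and the middle turn differed from the basal turn by -0.69 (adjusted p = 0.000124). Coch and the water channel Aqp1 differed by -0.32 (adjusted p = 0.00546) and -0.52 (adjusted p = 0.028), and Aqp1 stopped passing on leaving out any 1 of 6 arrays, all but apical replicate 4 and middle replicate 3 (adjusted p up to 0.0742). Of 7 genes for proton pump subunits and pendrin, Atp6v1g3 and Atp6v1b1 passed with the middle turn higher, the second not without apical replicate 2 or middle replicate 4. The share passing was 28.6%, against 7.59% of all genes, the list's median was 0.03, and 4 of the 7 genes lay above 0. The summed signal of the list was 6581 to 7362 on the apical and 4884 to 6298 on the middle arrays. With quantile normalization 1 gene passed with the apex and 2 with the middle turn higher, and with normexp correction 1 in each direction. Atp6v1g3, a pump subunit, had signals of 12.4, 11.7, 14.7 and 13.2 in the apex against 34.6, 25.0, 26.5 and 25.9 in the middle turn, against 212 ± 26.8 (SD, n = 4) in the base. Its probes were well above background on 2 of 4 apical arrays, and the difference was -1.10 ± 0.123 (adjusted p = 0.000676).

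Of 50 axon guidance ligands and receptors, 9 passed with the apex higher and 1 with the middle turn higher, and the median was 0.08. The shares were 18% and 2%, against 4.42% and 7.59% of all genes. Epha3, a receptor for ephrins, had signals of 170, 200, 208 and 192 in the apex against 48.4, 60.5, 85.2 and 70.8 in the middle turn. All 17 probes were higher in the apex, and the difference was 1.56 ± 0.171 (adjusted p = 0.00059). Robo2, a receptor for Slit proteins, had 121, 138, 110 and 104 against 56.6, 46.9, 52.3 and 42.0, a difference of 1.26 ± 0.123 (adjusted p = 0.000297) with all 27 probes higher. Its middle turn level exceeded the basal one by 1.53 (adjusted p = 3.07e-05). Chl1, a cell adhesion molecule of the L1 family, differed by 1.01 (adjusted p = 0.00196) and the secreted repellent Sema3a by 0.72 (adjusted p = 0.000676). The tenth gene, Sema3c, was lower in the apex by 0.26. Without single arrays 9 or 10 genes passed with the apex higher, and with scaling to the spike-in probes 6 passed in each direction, at a median of -0.14.

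Nerve cells themselves showed little. Of 18 genes of spiral ganglion neurons, Syt1, the calcium sensor of synaptic vesicles, passed with the apex higher and Prph, peripherin, with the middle turn higher, and the median was 0.04. That is 5.56% each way, near the 4.42% and 7.59% of all genes with the apex and the middle turn higher. Syt1 had signals of 146, 156, 145 and 150 in the apex against 87.7, 60.2, 73.8 and 66.6 in the middle turn, a difference of 1.06 ± 0.165 (adjusted p = 0.00394). Prph differed by -0.70 ± 0.113 (adjusted p = 0.00441), with 5 of 7 probes lower in the apex. The summed signal of the list was 45180 to 58310 on the apical and 43610 to 76680 on the middle arrays, the highest on middle replicate 1. None of 11 genes of myelinating Schwann cells passed, with a median of -0.07 and a range from -0.27 to 0.03.

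Among 55 voltage-gated and calcium-activated potassium channel genes, 4 passed in each direction, with a median of -0.06. That is 7.27% each way, near the 4.42% and 7.59% of all genes with the apex and the middle turn higher. Kcnb2, of the delayed rectifier family, averaged 124 in the apex against 61.2 in the middle turn, a difference of 1.03 ± 0.166 (adjusted p = 0.0045). Kcna10, a channel known from hair cells, had signals of 2396, 2500, 2243 and 1951 on the apical arrays and 1225, 1234, 1180 and 1174 on the middle arrays, with a mean of 377 in the base. Its single probe differed by 0.91 ± 0.164 (adjusted p = 0.00711) and by 1.72 from middle to base. Kcnq3 and Kcne4 were the other channel genes higher in the apex, and they stopped passing without middle replicate 4 (adjusted p = 0.0527) and on leaving out any 1 of 6 arrays (adjusted p up to 0.108), respectively. Of 26 calcium channel genes, Cacna1g and Cacna2d1 passed with the apex higher, by 0.54 (adjusted p = 0.00431) and 0.47 (adjusted p = 0.00376), and none of 13 sodium channel genes passed, at a median of 0.08. The calcium channel share was 7.69%, near the 4.42% of all genes.

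Small leucine-rich proteoglycans, which space collagen fibrils, were split between the turns. Of 14, 3 (21.4%) passed with the apex and 4 (28.6%) with the middle turn higher, against 4.42% and 7.59% of all genes. Epyc, epiphycan, had signals of 40400, 42540, 33660 and 40210 on the apical arrays and 21460, 23740, 21830 and 21900 on the middle arrays, with 11360 ± 393 (SD, n = 4) in the base. The difference was 0.81 ± 0.071 (adjusted p = 0.000173), and middle minus basal was 0.97 (adjusted p = 1.68e-05). Kera, keratocan, best known from the cornea, was the opposite case, with 57.1, 49.8, 59.01 and 80.8 in the apex against 136, 213, 156 and 174 in the middle turn. The difference was -1.46 ± 0.176 (2.76-fold, adjusted p = 0.001), and since the basal turn averaged 68.1 it was highest in the middle turn. Dcn, decorin, and Chad, chondroadherin, differed by -0.68 (adjusted p = 0.00964) and -0.72 (adjusted p = 0.0146).

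The 33 adhesive and matricellular glycoproteins had a median of 0.06, and 2 (6.06%, against 7.59% of all genes) passed with the middle turn higher. With the apex higher 5 passed (15.2%, against 4.42% of all genes), all of them 2-fold. Besides Tnc, Fn1 and Emilin2 these were Nov (now Ccn3), a secreted regulator of cell adhesion, and Matn1, matrilin 1 of cartilage. Nov had signals of 333, 353, 229 and 252 in the apex against 109, 108, 113 and 140 in the middle turn, a difference of 1.29 ± 0.191 (adjusted p = 0.00322). Matn1 differed by 1.08 ± 0.136 (adjusted p = 0.00133). The cartilage list as a whole had 2 genes higher in the apex, Matn1 and Lect1 (now Cnmd), and 1 higher in the middle turn, Acan, out of 14, at a median of 0. Acan stopped passing on leaving out any 1 of 6 arrays, and Lect1 not without apical replicate 2 or middle replicate 4.

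Of 26 claudins and other tight junction proteins, 5 (19.2%) passed with the apex higher and 1 (3.85%) with the middle turn higher, against 4.42% and 7.59% of all genes. Cldn22 was the only one called 2-fold. Its single probe read 1211, 1256, 878 and 1176 on the apical arrays and 241, 205, 271 and 216 on the middle arrays, with 968 ± 138 (SD, n = 4) in the base. The middle turn was thus below both its neighbours, by 2.27 ± 0.137 from the apex (4.83-fold, adjusted p = 2.41e-05) and by 2.05 from the base (adjusted p = 8.97e-06). Cldn6 differed by 0.91 (adjusted p = 0.00649). Cldn4, also higher in the apex, stopped passing on leaving out any 1 of 6 arrays (adjusted p up to 0.0997). With scaling to the spike-in probes 3 of the 26 passed with the apex and 7 with the middle turn higher, and with scaling to the median 5 and 3. Of 14 epithelial keratins, 3 (21.4%) passed with the apex higher and 1 (7.14%) with the middle turn higher. Krt19, a keratin of simple epithelia, had 1658, 1797, 1443 and 1418 against 613, 726, 627 and 585, a difference of 1.31 ± 0.095 (adjusted p = 0.000105). Krt23 differed by -1.14 ± 0.122 (adjusted p = 0.000531) and rose to 1112 in the base. Krt15, also higher in the apex, stopped passing on leaving out any 1 of 5 arrays (adjusted p up to 0.0743). With scaling to the spike-in probes 2 keratins passed with the apex and 4 with the middle turn higher.

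Carriers of lipids and retinoids moved in both directions. Of 15 apolipoproteins, Apoa4 and Apoc3 passed with the apex higher, Apoc3 not without apical replicate 2 or middle replicate 2 (adjusted p up to 0.0642). The share was 13.3%, against 4.42% of all genes. Apoa4, best known from the intestine, had 539, 559, 514 and 598 on the apical arrays and 240, 233, 266 and 290 on the middle arrays, with 51.7 in the base, with a difference of 1.11 ± 0.087 (adjusted p = 0.00011). Among 17 genes of retinoid transport and metabolism, the cellular retinoic acid binding proteins Crabp1 and Crabp2 were higher in the apex, by 1.02 (adjusted p = 0.0184) and 0.87 (adjusted p = 0.00281), and the plasma carriers Rbp4 and Ttr were lower. That is 11.8% of the list each way, against 4.42% and 7.59% of all genes. Rbp4, which carries retinol in blood, had 27.8, 22.5, 30.6 and 35.6 in the apex against 42.7, 47.0, 87.4 and 99.0 in the middle turn, against 6462 in the base. Its difference of -1.17 ± 0.298 (adjusted p = 0.03) was small beside the middle to basal step of -6.60 (adjusted p = 6.15e-07). Of its 6 probes, 3 were well above background on all 8 arrays. Over these 3, a value added after seeing the data, the difference was -0.61, or 1.53-fold, below the 2-fold limit. Rbp4 stopped passing on leaving out any 1 of apical replicates 1, 2 and 3 and middle replicate 4 (adjusted p up to 0.089), and Crabp1 not without apical replicate 1 or middle replicate 4. Ttr stopped passing on leaving out any 1 of 5 arrays (adjusted p up to 0.121).

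Of 36 chemokines and interleukins, 4 passed with the apex higher and 2 with the middle turn higher, while the median was -0.15. The shares were 11.1% and 5.56%, against 4.42% and 7.59% of all genes. Il33, a nuclear cytokine released by damaged cells, had 83.4, 76.1, 77.7 and 91.1 in the apex against 21.8, 21.5, 35.4 and 41.8 in the middle turn, a difference of 1.505 ± 0.259 (adjusted p = 0.00592) that did not pass without apical replicates 2 and 4 together (adjusted p = 0.0549). Cxcl13, which attracts B cells, differed by 1.07 (adjusted p = 0.00872). Cxcl14 and Ccl19 had adjusted p values of 0.049 and 0.0477, and both stopped passing on leaving out any 1 of 7 of the arrays, all but middle replicate 3.

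Several genes outside these lists had 1 of the 20 largest apical differences among the 2-fold calls without overlap of arrays. Fam84a (now Lratd1) had 149, 176, 139 and 118 in the apex against 30.2, 26.6, 36.2 and 13.0 in the middle turn, where its single probe was well above background on 1 array, and the difference was 2.54 ± 0.29 (adjusted p = 0.00077). Stc1, stanniocalcin 1, a secreted regulator of calcium and phosphate, had 61.4, 69.0, 64.7 and 83.9 against 16.2, 7.69, 19.7 and 11.4, with 2 of the middle arrays above background. Its difference was 2.42 ± 0.238 (adjusted p = 0.000309). For both genes the turns did not overlap, which was a condition for naming them, and the middle turn level was at the edge of detection.

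Ecel1, a membrane peptidase of the endothelin-converting enzyme family, was measured by 15 probes. It had 443, 487, 352 and 293 in the apex against 72.9, 106, 115 and 84.8 in the middle turn, a difference of 2.05 ± 0.185 (adjusted p = 0.000214). Tnfaip6, which binds hyaluronan, had 157, 157, 132 and 177 against 42.8, 47.5, 59.6 and 53.4, a difference of 1.62 (adjusted p = 0.00059). Spink5, an inhibitor of serine proteases, differed by 1.92 (adjusted p = 0.00275), Galnt5, which starts O-linked sugar chains, by 1.69 (adjusted p = 0.000749), the lipoxygenase Alox12e by 1.65 (adjusted p = 0.000338) and the ubiquitin ligase Rnf182 by 1.54 (adjusted p = 0.0125). Galnt5 and Rnf182 were well above background on 2 of the 4 middle arrays, and Rnf182 did not pass without apical replicates 2 and 4 together (adjusted p = 0.0779). For Spink5, 2 of 30 probes were well above background on all middle arrays and 9 on all apical arrays, and for Alox12e 2 and 7 of 14. With normexp correction 6 of the genes with dim middle turn probes still passed the test, with folds of 1.43 for Spink5, 1.49 for Alox12e, 1.3 for Galnt5, 1.48 for Rnf182, 1.61 for Stc1 and 2.19 for Fam84a. For Ecel1, Tnfaip6, Spink5, Galnt5, Alox12e and Rnf182 the apical arrays did not overlap the middle arrays. This was a condition for naming them and is no separate support.

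The largest differences with the middle turn higher came from a predicted gene on chromosome 14. The names ENSMUST00000162998 and Gm7247 carry 1 probe each, and the file's descriptions give both to the same predicted gene, at chr14:52189541-52189600 and across chr14:52168568-52189349. The first read 1401, 1123, 1140 and 1113 in the apex against 6538, 9095, 5812 and 5962 in the middle turn, and the second 257, 209, 265 and 204 against 1082, 1636, 1092 and 1026. The differences were -2.50 ± 0.175 (adjusted p = 8.67e-05) and -2.35 ± 0.186 (adjusted p = 0.00011), and neither differed between the middle and basal turns by the test (adjusted p = 0.117 and 0.13). Both probes belong to the same locus and count as 1 finding.

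Spp2, a secreted phosphoprotein of bone matrix and plasma, had 10.4, 8.83, 10.6 and 8.65 in the apex against 57.3, 29.6, 45.2 and 50.6 in the middle turn. Its probes were well above background on 1 apical and all 4 middle arrays, all 5 were lower in the apex, and the difference was -2.21 ± 0.238 (adjusted p = 0.000547). With normexp correction the fold of Spp2 was 1.66 (adjusted p = 0.00298). Enpp6, a phosphodiesterase that splits choline phosphate esters, had 32.9, 34.9, 39.8 and 44.3 in the apex against 69.4, 96.8, 89.9 and 106.8 in the middle turn, a difference of -1.25 ± 0.145 (adjusted p = 0.00083), and stood at 468 in the base. The sulfotransferase genes Gal3st2 and Sult5a1 differed by -1.27 (adjusted p = 0.000716) and -1.01 (adjusted p = 0.00491). Cyp1a1, an enzyme induced by aromatic hydrocarbons, differed by -1.05 (adjusted p = 0.00239). Of the 24 names called 2-fold in the middle turn, Ucn3, Olfr137, Hist1h1d and A_56_P144361 were not well above background on any array of either turn, and their folds are not given. Prol1 (adjusted p = 0.0277) and Dpep1 (adjusted p = 0.0235) stopped passing on leaving out any 1 of 5 and of 4 arrays, respectively.

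Cells that do not belong to the labelled tissues varied between arrays of the same turn. The 12 genes of neutrophils and their marrow precursors had a median of 1.18, all 12 lay above 0, and 1 passed the test. This was Ltf, lactoferrin of neutrophil granules, with 79.4, 192, 146 and 378 in the apex against 73.9, 112, 31.0 and 31.0 in the middle turn, overlapping arrays and 1.68 ± 0.496 (adjusted p = 0.0497). The summed signal of the list was 1118 to 37060 on the apical and 921 to 8747 on the middle arrays, with apical replicates 4 and 2 at the top. Without these arrays the list's median was -0.08, and Ltf stopped passing on leaving out any 1 of 6 arrays (adjusted p up to 0.135). Ear7 and Prg2, genes of eosinophil granules, had differences of 3.11 and 2.62 that did not pass. S100a9, a marker of this list, averaged 8065 and 2036 with an adjusted p of 0.352.

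Apical replicate 4 also held the highest summed signal of osteoblast genes, 9143 against 3227 to 4077 on the other apical and 3622 to 3987 on the middle arrays, and of osteoclast genes, 1265 against at most 878 on the middle arrays. The lymphocyte list summed to 371 to 581 in the apex and 379 to 418 in the middle turn, and the erythroid list to 21670 to 60720 and 41380 to 71980. In the osteoblast list Runx2 alone passed the test (0.33, adjusted p = 0.0351), though it stopped passing on leaving out any 1 of 4 arrays. Vpreb2, of the precursor B cell receptor, had 37.96, 68.1, 37.7 and 38.5 in the apex and was not well above background in the middle turn, which makes it at least 1.37-fold higher (adjusted p = 0.025). Nfe2, a transcription factor of blood-forming cells, had 40.2, 77.3, 47.0 and 105 against 21.8, 27.6, 35.1 and 17.7, a difference of 1.34 (adjusted p = 0.0191). Both lost the call without apical replicate 2 or middle replicate 4, and Vpreb2 also without middle replicate 2. The part of marrow or bone cells in Ltf, Vpreb2 and Nfe2 was not tested. Of the 52 genes called 2-fold in the apex, Tectb, Fst, Sfrp1, Tnc, Fn1, Emilin2, Cldn22, Epha3 and Robo2 passed the test without either or both of apical replicates 2 and 4.

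**Figure D5:**
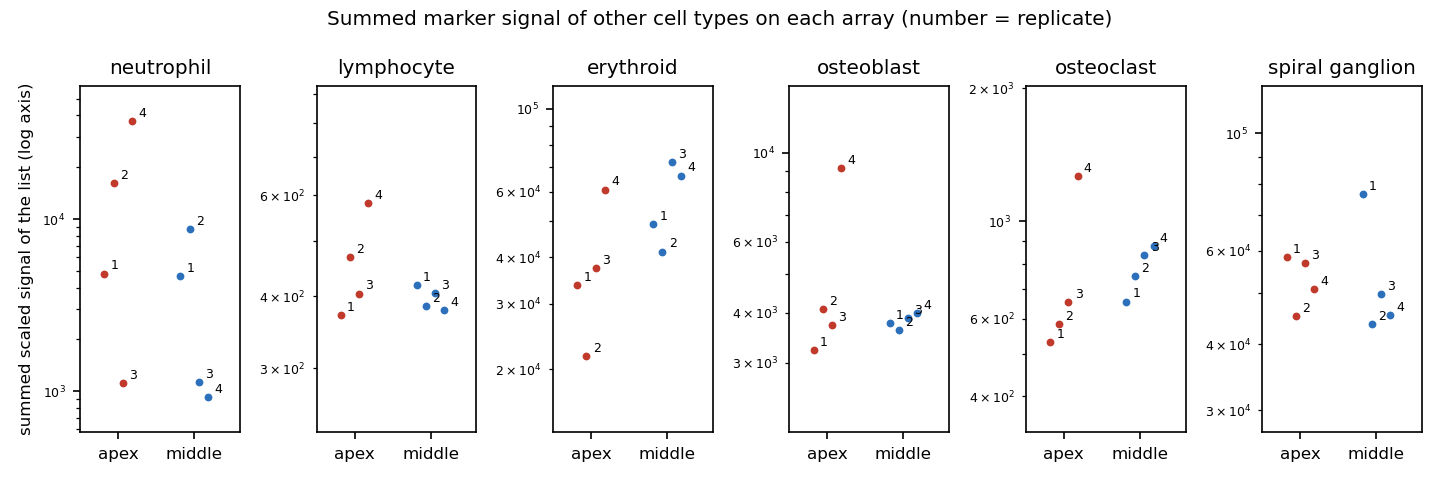
Summed scaled signal (y axes, log scale) of 6 marker lists on each apical (red) and middle (blue) array, numbered by replicate. Apical replicate 4 is highest for neutrophil, lymphocyte, osteoblast and osteoclast genes, and middle replicate 1 for spiral ganglion genes.

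Other cell types gave few calls. Of 11 secretory epithelial genes of the middle ear and airway, Rya3 (now Bpifb3) and Agr3 passed with the apex higher, by 1.63 ± 0.243 (adjusted p = 0.00338) and 1.11 ± 0.157 (adjusted p = 0.00272), and Agr2 with the middle turn higher, at a list median of -0.14. The summed signal of that list was 920 to 1490 on the apical and 613 to 1405 on the middle arrays. Rya3 had 629, 476, 267 and 315 in the apex and between 114 and 153 on 3 middle arrays, with middle replicate 1 lower still. Of 11 endothelial genes, Eng and Esam passed with the middle turn higher, and of 10 pericyte and smooth muscle genes, Des with the apex and Acta2 with the middle turn higher. With the apex and the middle turn higher, 4.42% and 7.59% of all genes passed. The list shares were 18.2% and 9.09% (secretory), 0% and 18.2% (endothelial) and 10% each way (pericyte and smooth muscle). Esam and Acta2 stopped passing on leaving out any 1 of 7 and of 5 arrays (adjusted p up to 0.0872 and 0.0771), and Agr2 without apical replicate 2 or middle replicate 4. None of 11 macrophage, 8 lymphocyte, 6 erythroid, 6 osteoclast, 11 skeletal muscle and 3 otoconial genes passed.

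Of 60 measured genes of human non-syndromic hearing loss, 12 passed with the apex and 5 with the middle turn higher, at a median of 0.12, and none was called 2-fold. The shares were 20% and 8.33%, against 4.42% and 7.59% of all genes. Of these 60, 38 also belong to other lists given above, among them Ptprq, Slc26a5, Strc and Whrn. With scaling to the spike-in probes 3 and 12 passed, and without single arrays 6 to 13 passed with the apex higher, the lowest number without apical replicate 2. The numbers were 8 without apical replicate 1, middle replicate 1 or middle replicate 4. Of 14 reference genes, 4 passed with the middle turn higher (Sdha, Ppia, Hprt and Pgk1), at a median of -0.17. That is 28.6%, against 7.59% of all genes. Ppia stopped passing on leaving out any 1 of 7 arrays, Pgk1 of 3 and Hprt without apical replicate 2 (adjusted p up to 0.1, 0.0767 and 0.0516). The number passing was 1 without apical replicate 2, 2 without apical replicate 1 or middle replicate 4, and 0 without apical replicates 2 and 4 together. With quantile normalization 2 reference genes passed with the apex and 1 with the middle turn higher. With scaling to the spike-in probes these counts were 0 and 9, so they depend on the scaling. Of 24 immediate early genes Junb passed with the middle turn higher, by -0.69 (adjusted p = 0.0306), and of 10 heat shock genes Hspe1, by -0.22 (adjusted p = 0.0487), with list medians of -0.16 and -0.10. Both stopped passing on leaving out any 1 of 6 arrays, all but apical replicate 4 and middle replicate 3.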

How the data were processed

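Total RNA of 4 apical, 4 middle and 4 basal turn samples was labelled with a low-input whole-transcriptome kit and hybridized to single-colour Agilent mouse exon arrays, with probe positions on mm9. The authors deposited intensities as read by Agilent Feature Extraction 10.7.3.1 after subtraction of a fitted background, with small positive values in place of spots that did not exceed it. The value matrix of the authors held the same intensity values for all 180880 spots. From there, 7914 control spots were removed, as were 622 spots with an outlier or manual flag on at least 1 array. Signals were divided by the 75th percentile of their array, log2 transformed, and averaged over repeated spots and over the 165865 probes sharing a gene name, without a filter on low signals, which gave 19505 of 19506 gene names. RefSeq (GRCm38.p6) gave present symbols for 18970 names. Positions are those in the files.

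Turns were compared with limma 3.58.1 (lmFit and eBayes, R 4.3.3 with the data.table package, version 1.17.8) over all 12 arrays, with turn as the only factor, the contrast apical minus middle and Benjamini-Hochberg adjustment. A gene with no probe well above background on any array of a turn has only a bound there: at least N-fold, against the mean of, per array, the higher of its own signal and the lowest signal well above background. Named genes were the 20 largest differences in each direction among 2-fold calls without overlap of arrays, 2-fold calls in a list, and up to 4 passing members of each list with the largest differences, or up to 2 of a list with none passing. A few further genes were named after their values were seen. The 43 lists, the members and the tests were chosen with earlier results of these data known. Lists are described by counts and medians, with no test. The comparison of middle and basal turns shares the middle arrays with that of apex and middle. The mean over probes well above background on all 8 arrays, given for Tectb, Tnc and Rbp4, was added after seeing the data. Alternatives were quantile, median and spike-in scaling, normexp background correction (offset 50), probes well above background only, 16 added to each signal, the median of probes, flagged spots kept, the 8 arrays alone, limma's trend and robust options, the F test over 3 turns, the methods' one-way analysis of variance, a replicate block and leaving out each array. Leaving out apical replicates 2 and 4, and apical replicate 4 with middle replicate 1, was chosen after seeing the data. The scripts were tested on simulated data. The precision is limited by 4 arrays per turn. Some members of the strial list are not reported here by name.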

Additional observations from a re-analysis of the deposited data

Results flagged for a closer look

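In 14 of the 314 groups of 4 arrays checked, 1 array lay apart from the other 3 of its turn by Dixon's criterion, where chance gives about 16. Values are scaled signals, and no cause was tested. On apical arrays these were replicate 2 for Vpreb2 (68.1), replicate 3 for Grem1 (51.7) and Prol1 (71.1), replicate 1 for ENSMUST00000162998 (1400) and Sema3a (166), and replicate 4 for Krt23 (161). On middle arrays these were replicate 2 for Tectb (46.8), Gm7247 (1640) and Chrna9 (139), replicate 1 for Atp6v1g3 (34.6), and replicate 4 for Nov (140) and Wnt7b (68). The summed signal of the basilar membrane list was lowest on apical replicate 3 (7170), and that of the osteoblast list highest on apical replicate 4 (9140).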

How the results depend on the processing

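Of the 2-fold calls, all 76 kept their direction under the 24 settings tried. Settings that changed only the test, or read the authors' value matrix, could not change a direction. For the 69 calls whose arrays did not overlap between turns, leaving out arrays could not change it either. The counts depended more on the processing. In each pair below the first count has the apex and the second the middle turn higher. Scaling to the spike-in probes gave 29 and 105 2-fold calls and 213 and 7717 genes passing the test, with 52 of the 76 calls shared. Normexp correction gave 10 and 2 2-fold calls and 542 and 1334 genes passing the test, with 12 shared, and adding 16 to each signal gave 26 and 10 2-fold calls and 1038 and 1642 genes passing the test, with 36 shared. Scaling to the median gave 45 and 34 2-fold calls and 661 and 2888 genes passing the test. The F test and the methods' analysis of variance ask for any difference among the 3 turns, middle against base included. Split by the sign of apical minus middle, the F test gave 2997 and 4541 genes and the analysis of variance 2989 and 4352. These are not counts of genes that differ between apex and middle. The median of probes gave 624 and 943 genes passing the test. Leaving out apical replicates 2 and 4, chosen after seeing the data, gave 287 and 327 genes passing the test. With the replicate block, 1062 and 2257 genes passed, and 71 of the 76 2-fold calls were shared. The labels do not say that a number marks 1 animal, and same-number correlations of deviations ran from 0.04 to 0.19, although 8 of 8 arrays correlated best with their own number, which is a hint from the data and not the design. Leaving out each array in turn gave 41 to 61 and 16 to 31 2-fold calls and 431 to 956 and 534 to 2583 genes passing, the numbers passing being lowest without apical replicate 2 and highest without middle replicate 3. Tyrp1 alone changed sign, to 0.001 (adjusted p = 0.996), with only probes well above background. List medians, here minus the median of all genes, moved as follows. With normexp correction it was 0.322 for outer hair cells, 0.149 for hair bundle and transduction complex of hair cells, 0.045 for proton pump subunits and pendrin of spindle, root and other acid-secreting cells, 0.021 for lymphocytes, 0.03 for adhesive and matricellular matrix glycoproteins, 0.087 for axon guidance ligands and receptors and -0.011 for chemokines and interleukins. Without apical replicate 4 and middle replicate 1, also chosen after seeing the data, it was 0.386 for inner hair cells and their ribbon synapse, -0.454 for intermediate cells of the stria vascularis and other melanocytes, -0.042 for proton pump subunits and pendrin of spindle, root and other acid-secreting cells, -0.188 for fibrocytes of the spiral ligament and spiral limbus, -0.624 for red blood cells and their precursors, 0.023 for secreted antagonists of BMP, activin and Wnt ligands, 0.062 for Wnt ligands, 0.043 for adhesive and matricellular matrix glycoproteins, 0.219 for voltage-gated calcium channels and -0.162 for chemokines and interleukins. With dim probes left out it was 0.057 for transcription factors of hair cells, 0.038 for proton pump subunits and pendrin of spindle, root and other acid-secreting cells, -0.082 for blood vessel endothelium, -0.082 for macrophages, 0.069 for lymphocytes, -0.068 for otoconia of the vestibular organs, 0.215 for TGF-beta, activin and BMP ligands, 0.086 for adhesive and matricellular matrix glycoproteins and -0.021 for chemokines and interleukins. With quantile normalization the median was -0.038 for supporting cells of the organ of Corti, -0.004 for proton pump subunits and pendrin of spindle, root and other acid-secreting cells, -0.09 for blood vessel endothelium, 0.025 for skeletal muscle, 0.077 for adhesive and matricellular matrix glycoproteins, 0.08 for axon guidance ligands and receptors and 0 for reference genes used for qPCR. With the median of probes it was 0.132 for non-collagen proteins of the tectorial membrane and its attachment, -0.055 for proton pump subunits and pendrin of spindle, root and other acid-secreting cells, -0.074 for blood vessel endothelium, -0.134 for otoconia of the vestibular organs, 0.171 for TGF-beta, activin and BMP ligands and 0.165 for adhesive and matricellular matrix glycoproteins. Without apical replicates 2 and 4 it was 0.006 for proton pump subunits and pendrin of spindle, root and other acid-secreting cells, -0.118 for fibrocytes of the spiral ligament and spiral limbus, -0.134 for macrophages, 0.006 for lymphocytes, -0.016 for neutrophils and their marrow precursors, 0 for cartilage matrix and chondrocytes, 0.045 for skeletal muscle, 0.101 for Wnt ligands, 0.058 for adhesive and matricellular matrix glycoproteins and 0.173 for voltage-gated calcium channels. With 16 added to each signal it was 0.025 for skeletal muscle. Leaving out each array in turn moved it over 0.137 to 0.318 for inner hair cells, -0.399 to -0.249 for intermediate cells of the stria, -0.102 to 0.085 for ligament fibrocytes, -0.027 to 0.118 for supporting cells of the organ of Corti, -0.037 to 0.132 for proton pump subunits and pendrin of spindle, root and other acid-secreting cells, 0.067 to 0.261 for lymphocytes, -0.57 to -0.05 for red blood cells and their precursors, 0.013 to 0.093 for cartilage matrix and chondrocytes, 0.012 to 0.187 for secreted antagonists of BMP, activin and Wnt ligands, -0.004 to 0.079 for Wnt ligands, 0.04 to 0.116 for adhesive and matricellular matrix glycoproteins, 0.035 to 0.181 for voltage-gated calcium channels and -0.152 to -0.027 for chemokines and interleukins. The causes were not tested. Dim genes have only bounds, and 4 arrays per turn limit the precision.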
